A study of Mus musculus with 3 samples.

Results

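The guanylate-binding proteins are large interferon-inducible GTPases, and 8 of their mouse genes are described here, Gbp2, Gbp3, Gbp4, Gbp5, Gbp6, Gbp7, Gbp8 and Gbp9. They were taken by name, with every probe set that the platform's gene table assigns to them, out of 22180 genes with a probe set of their own on the array. All 8 symbols were found, each with 1 probe set. That of Gbp2 also names Gbp2b, the gene long called Gbp1, so 7 of the 8 genes had a probe set of their own. The family was chosen by its measured levels on these same arrays, in which some of its genes were seen to differ between populations, so the levels are given as a description.

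Transcript levels were measured in 3 sorted populations, each on 1 array. The cells came from peritoneal washes of 5 BALB/c mice, female, naive and aged 10 to 11 weeks, and were pooled before sorting. Mast cell progenitors were low in side scatter and high in integrin β7, whereas mature mast cells were high in side scatter and negative to intermediate for integrin β7. Both were c-kit high and positive for FcεRI, the high-affinity IgE receptor, with intermediate CD16/32 and without CD127 or CD25. Type 2 innate lymphoid cells (ILC2s), which make type 2 cytokines without an antigen receptor, were positive for CD127 and CD25, low or negative for c-kit and negative for FcεRI and CD16/32. All 3 gates required ST2 and low or absent lineage markers. The RNA of 100 sorted cells per population was amplified. There is no replicate, so no value below has an error and no difference was tested.

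Guanylate-binding proteins belong to the dynamin superfamily. Their transcription is induced above all by interferon-γ, whose receptor signals through JAK kinases, and the transcription factor IRF1 takes part in it. The proteins assemble on pathogens and on the vacuoles that hold them, and in macrophages they help to break these open and to activate inflammatory caspases. The immunity-related GTPases, a second interferon-inducible family, work beside them in mice.

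Gbp4 and Gbp8 were bright on the ILC2 array and dim on both mast cell arrays, whereas no probe set of the other 6 genes differed by more than 1.45-fold between any pair of arrays. The log2 level of Gbp8 was 5.03 on the progenitor array and 4.59 on the mature mast cell array, against 8.79 in ILC2s. That of Gbp4 was 4.29 in progenitors and 4.70 in mature mast cells, against 7.93 in ILC2s. For both genes the ILC2 array thus stood apart from the mast cell arrays, which lay close together and below the median of all single-gene probe sets (6.32 for progenitors and 6.30 for mature mast cells).

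The log2 difference of Gbp8 was -3.76 between progenitors and ILC2s and -4.20 between mature mast cells and ILC2s, measured differences of 13.6-fold and 18.4-fold. For Gbp4 the same differences were -3.64 and -3.23, or 12.5-fold and 9.37-fold. Levels below an array's median may be background, so a more cautious fold takes that median for the dim array. On that basis the level of Gbp8 in progenitors was at least 5.55-fold lower than that in ILC2s, and its level in mature mast cells at least 5.62-fold lower. For Gbp4 these bounds were at least 3.06-fold and at least 3.10-fold lower. In bulk samples a smaller share of expressing cells and less RNA per cell cannot be told apart.

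Differences were counted from 4-fold upward, a log2 difference of 2 or more in size, and only where the brighter of the compared arrays lay above its median. By this rule 2 of the 7 genes with their own probe set, Gbp4 and Gbp8, were lower in progenitors than in ILC2s, against 0.888% of all genes. The same 2 genes were lower in mature mast cells than in ILC2s, against 0.401% of all genes. With the more cautious fold, an alternative chosen after the data were examined, Gbp4 no longer reached 4-fold and Gbp8 was the only 1 of the 7 in both comparisons. By that fold 208 of all 22180 genes passed in either direction between progenitors and ILC2s, and 160 between mature mast cells and ILC2s. At 2-fold the genes that passed were Gbp4 and Gbp8 in both comparisons, by either fold. By the measured fold 1.88% of all genes were 2-fold lower in progenitors than in ILC2s, and 1.26% in mature mast cells. By the cautious fold 522 and 490 of all genes passed 2-fold in these comparisons, in either direction. None of the 7 was different between progenitors and mature mast cells, where 0.947% of all genes passed in either direction, and none reached 2-fold, against 2.44% of all genes. Since the genes were chosen with these values in view, the shares are given for scale and nothing is read from them. The comparisons with ILC2s use the same ILC2 array, so an error of that array would enter both. Over all genes, progenitor levels were lower more often than higher. At 4-fold 197 were lower and 46 higher than in ILC2s, and 185 lower and 25 higher than in mature mast cells. In mature mast cells 89 were lower and 127 higher than in ILC2s. On the progenitor array 619 genes were above a log2 level of 8, against 788 in mature mast cells and 811 in ILC2s. Whether the progenitor array had weaker signal as a whole was not tested.

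**Figure D1:**
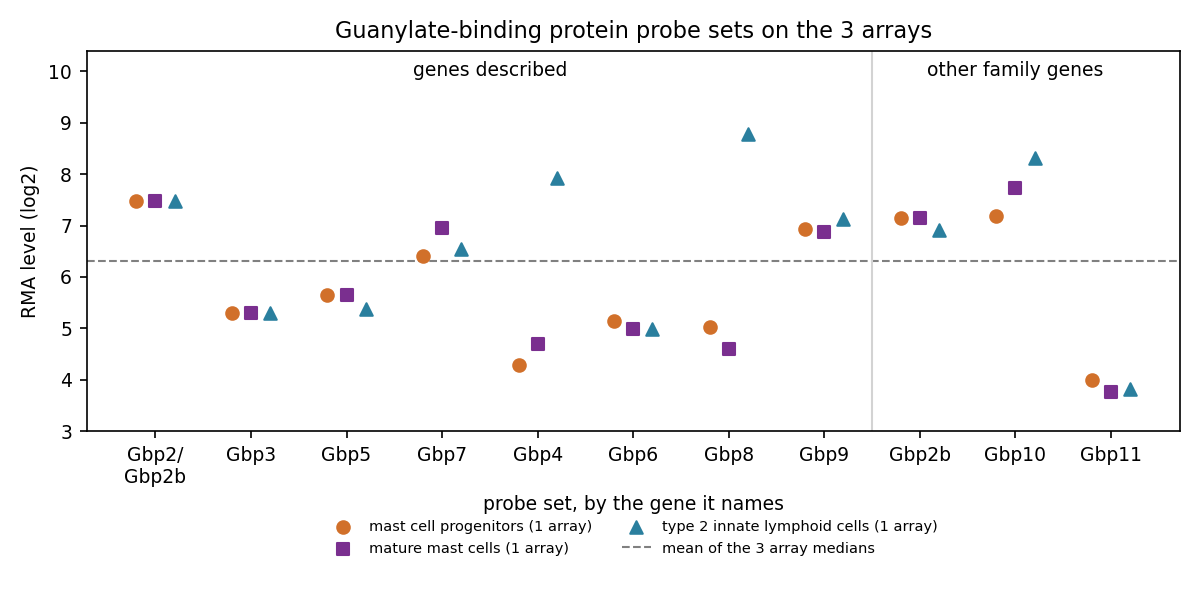
RMA log2 level (vertical axis) of each probe set that names a guanylate-binding protein gene (horizontal axis), with 1 point per array, and the mean of the 3 array medians as a dashed line. The ILC2 points of Gbp4 (7.93) and Gbp8 (8.79) stand above the line while both mast cell points of these genes lie below it, and the points of Gbp2/Gbp2b and of Gbp3 coincide.

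Among all 22180 genes ordered from the most negative measured difference, Gbp8 took position 55 between progenitors and ILC2s and position 16 between mature mast cells and ILC2s. Gbp4 took positions 61 and 35 in the same comparisons. Since the mast cell levels of both genes lie below the median and may be background, these positions describe the deposited values and are not firm ranks. In all, 82 genes, or 0.370%, were lower by this rule in progenitors and in mature mast cells alike than in ILC2s. They included Gbp8 and Gbp4. With levels below the median set to it 65 genes passed, Gbp8 among them and Gbp4 not. Olfactory and vomeronasal receptor genes, which belong to sensory neurons, show how often genes of another tissue had the same pattern. Of 1390 such genes 3, or 0.216%, were lower by this rule in both mast cell populations. The 82 genes were also ordered by the smaller of each gene's differences from ILC2s. In that order the vomeronasal receptor gene Vmn1r48 stood ahead of Gbp8 (position 16) and Gbp4 (position 30). A gene of another tissue thus showed the pattern more strongly than either. Between progenitors and mature mast cells, however, 19 of the 1390, or 1.37%, were lower in progenitors, against 0.834% of all genes.

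**Figure D2:**
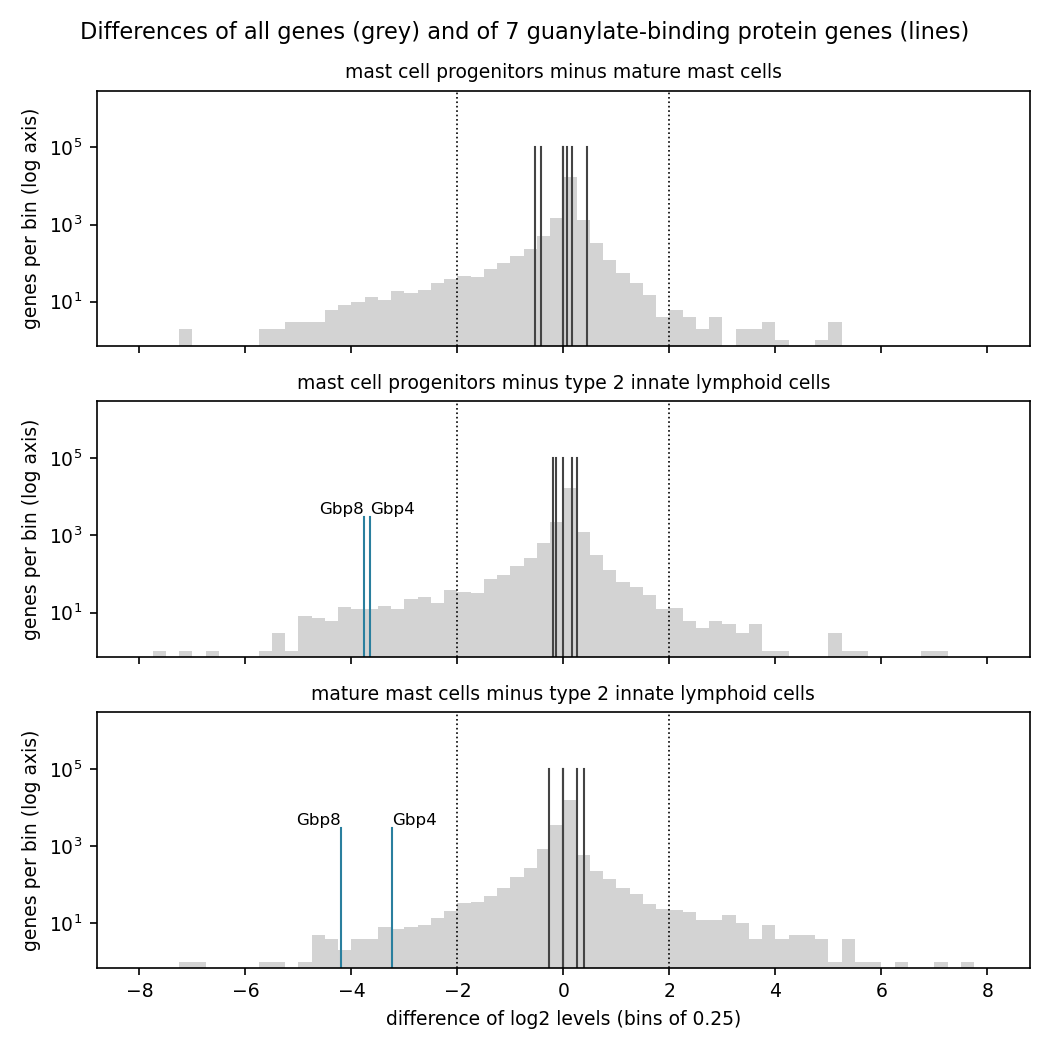
Number of genes (logarithmic vertical axis) by difference of log2 levels (horizontal axis, bins of 0.25) for the 3 comparisons, with vertical lines at the 7 guanylate-binding protein genes that have their own probe set and dotted lines at 4-fold. Gbp8 (-3.76 and -4.20) and Gbp4 (-3.64 and -3.23) lie beyond 4-fold in the comparisons with ILC2s, and no line does between progenitors and mature mast cells.

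The genes whose pattern was nearest to these 2 were found by the distance between log2 levels over the 3 arrays, each gene centred on its own mean, among 914 genes that spanned at least 1 log2 unit and were above the median on their brightest array. Nearest to Gbp8 were Fam204a (distance 0.17), Tgds (0.22) and Emb (0.22). Fam204a was at 6.70 in progenitors and 6.07 in mature mast cells, against 10.49 in ILC2s. Nearest to Gbp4 were Spcs3, a signal peptidase subunit gene (0.22), Taf1d (0.22) and the transcription factor gene Klf6 (0.23). Klf6 was at 6.94 in progenitors and 7.07 in mature mast cells, against 10.30 in ILC2s. With 3 points per gene such likeness describes these arrays alone.

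Gbp6, Gbp7 and Gbp9 encode proteins known to gather on the vacuole of the parasite Toxoplasma gondii in mouse cells, and none of the 3 differed by as much as 2-fold. Gbp9 was at 6.93 in progenitors and 6.87 in mature mast cells, against 7.13 in ILC2s, above the median on each array. Gbp6 was at 5.15 in progenitors and 4.98 in both mature mast cells and ILC2s, below the median on each. Gbp7, which in mouse macrophages helps to deliver the phagocyte oxidase to pathogens, was at 6.40 in progenitors and 6.94 in mature mast cells, against 6.54 in ILC2s. Gbp7 was thus brightest in mature mast cells, and its largest log2 difference was -0.54, between progenitors and mature mast cells, or 1.45-fold.

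Gbp5, which promotes NLRP3 inflammasome assembly in mouse macrophages, was at 5.65 in both mast cell populations and 5.38 in ILC2s, below the median on each array. Gbp3 was at 5.30 on all 3 arrays, with identical deposited values. The probe set shared by Gbp2 and Gbp2b was at 7.48 on all 3 arrays, again with identical values and above the median. Gbp2 is needed in mice to control Toxoplasma gondii, but its own level cannot be separated here from that of Gbp2b.

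Exact ties of this kind were common. Between progenitors and mature mast cells 58.3% of all genes had the same value, between progenitors and ILC2s 57.0%, and between mature mast cells and ILC2s 60.6%. A tie therefore shows that no difference was resolved, which is not evidence of equal expression. Of the 7 genes with their own probe set, 2 were tied between progenitors and mature mast cells (Gbp3 and Gbp5), 1 between progenitors and ILC2s (Gbp3) and 2 between mature mast cells and ILC2s (Gbp3 and Gbp6). The median log2 difference of these 7 genes was 0, -0.14 and 0 in the same order of comparisons, against 0 for all genes in each.

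The other family genes on the array were Gbp2b, Gbp10 and Gbp11, each with a probe set of its own. Gbp10 was at 7.18 in progenitors and 7.73 in mature mast cells, against 8.32 in ILC2s. Against ILC2s it was thus 2.21-fold lower in progenitors and 1.51-fold lower in mature mast cells, in the direction of Gbp4 and Gbp8 but short of 4-fold. Gbp2b was at 7.14 in both mast cell populations and 6.91 in ILC2s. Gbp11, annotated as a transcribed pseudogene, was dim on every array, at 4.0 in progenitors and 3.76 in mature mast cells, against 3.81 in ILC2s. Genes of this family are close in sequence, and whether a probe set of one also binds transcripts of another was not tested, since probe sequences were not used here.

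Guanylate-binding protein genes form 2 clusters in the mouse genome. In the RefSeq annotation of GRCm38.p6, Gbp8, Gbp9, Gbp4, Gbp10, Gbp6 and Gbp11 follow each other on chromosome 5, and Gbp5, Gbp7, Gbp3, Gbp2b and Gbp2 on chromosome 3. Both genes that were bright in ILC2s alone thus lie in the chromosome 5 cluster, with Gbp9 between them. Gbp9 itself was only 1.15-fold and 1.20-fold lower in progenitors and in mature mast cells than in ILC2s. Among the 8 measured genes that flank this cluster, 4 on each side, the largest log2 difference in any comparison was 0.50, for Gm20385. Its nearest neighbours Abcg3, a transporter gene, and Lrrc8b, which encodes a subunit of volume-regulated anion channels, were at 5.24 and 5.95 in progenitors, 5.24 and 6.22 in mature mast cells, and 5.25 and 6.22 in ILC2s. On chromosome 3 the 8 flanking genes differed by at most 0.79, for Lmo4, a transcriptional cofactor gene, which was at 6.41 in progenitors and 6.58 in mature mast cells, against 7.20 in ILC2s.

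**Figure D3:**
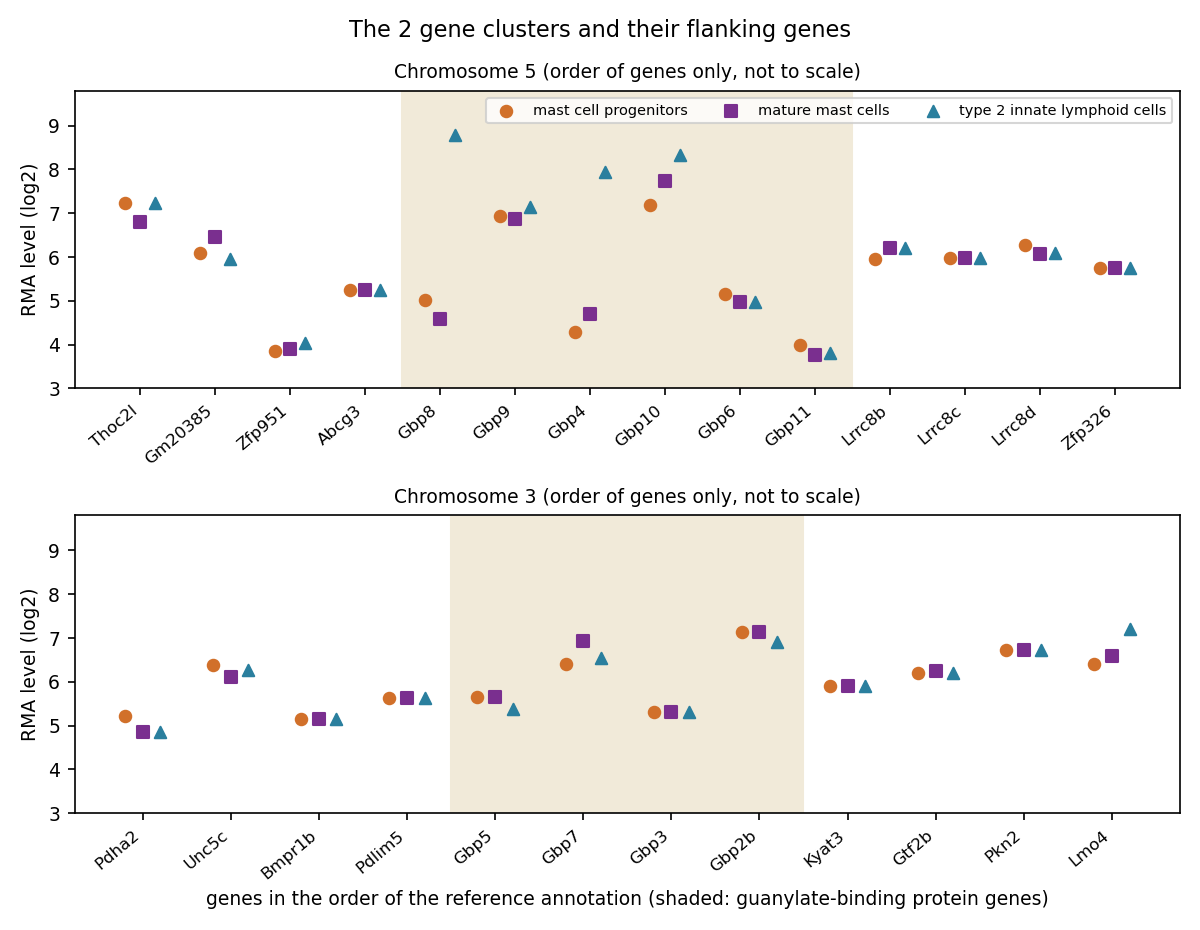
RMA log2 level (vertical axis) on each of the 3 arrays for the measured guanylate-binding protein genes (shaded) and 4 measured genes on either side, in the order of the reference annotation on chromosomes 5 and 3 (horizontal axis, not to scale). Gbp8 and Gbp4 show the wide gap between the ILC2 point and the mast cell points, while Gbp9 between them and the flanking genes of chromosome 5 do not.

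Interferon acts on these genes through known promoter elements, the interferon-stimulated response element (ISRE) and the γ-activated site (GAS). RefSeq promoter sequences (GRCm38.p6), from 250 bases before to 50 after a start site, were matched for Gbp2, Gbp2b, Gbp3, Gbp5 and Gbp7 of the chromosome 3 cluster. Those of Gbp4, Gbp6, Gbp8 and Gbp9 were not analysed here. The ISRE core was searched as TTTCNNTTTC, which is GAAANNGAAA on the other strand, and the GAS as TTCNNNGAA, the same on both strands. All 5 genes held the ISRE core, in 5 of their 6 promoter windows, against 3.44% of 32851 mouse promoters. Gbp5 and Gbp7 also held the GAS, which 8.30% of promoters hold, and 0.454% hold both. The stretches around each ISRE core are shown for every family gene with a matched promoter, none of which differed by 2-fold on these arrays. They run on the plus strand, which is the strand of the genes, and stop before the first transcribed base. Matches are in capitals.
Gbp5, chr3:142496719-142496828: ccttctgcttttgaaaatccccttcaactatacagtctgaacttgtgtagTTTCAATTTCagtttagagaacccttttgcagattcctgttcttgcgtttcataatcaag
Gbp7, chr3:142530230-142530335: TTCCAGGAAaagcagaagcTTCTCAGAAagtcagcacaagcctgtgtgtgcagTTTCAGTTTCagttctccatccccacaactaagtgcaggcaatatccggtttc
Gbp3, chr3:142559949-142560015: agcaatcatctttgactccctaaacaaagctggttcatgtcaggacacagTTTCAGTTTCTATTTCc
Gbp2b, chr3:142594660-142594769: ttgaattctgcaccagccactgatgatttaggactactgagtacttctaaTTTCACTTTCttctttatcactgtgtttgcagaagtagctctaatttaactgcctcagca
Gbp2, chr3:142620554-142620662: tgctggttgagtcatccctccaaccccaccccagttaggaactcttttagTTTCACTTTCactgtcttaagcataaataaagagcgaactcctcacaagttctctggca

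The ISRE core began 53 bases before the start site in Gbp7, 59 in Gbp2, 137 in Gbp2b and 165 in Gbp5. Gbp3 held 2 overlapping cores, 45 and 39 bases before the start site of its first promoter, and its second promoter held neither motif. The GAS of Gbp7 lay 106 and 87 bases before the start site, and that of Gbp5 lay 245 and 52 bases before it, outside the stretch shown. No GAS overlapped an ISRE core in these promoters. A match describes letters and does not show that a factor binds.

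The interferon-γ receptor chain Ifngr1, which binds the cytokine, shared the direction of Gbp4 and Gbp8. Ifngr1 was at 7.62 in progenitors and 7.70 in mature mast cells, against 9.51 in ILC2s, so it was 3.70-fold and 3.51-fold lower in the mast cell populations. Ifngr2, the second chain of this receptor, was at 6.61 in both mast cell populations and 6.65 in ILC2s. At 2-fold, where 1.88% of all genes were lower in progenitors than in ILC2s, 1 of 17 measured genes of interferon receptors and JAK-STAT signalling was lower, Ifngr1, and none was higher. Between mature mast cells and ILC2s 2 of 17 were lower, Ifngr1 and Socs1, against 1.26% of all genes. Socs1, an inhibitor of JAK kinases that interferon-γ itself induces, was at 6.60 in progenitors and 6.26 in mature mast cells, against 7.44 in ILC2s.

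For the receptor chains of type I interferon no difference was resolved. Ifnar1 was at 6.92 and Ifnar2 at 7.03 on each array, and the kinase gene Jak2 at 7.0, all exact ties. Jak1, a kinase that all interferon receptors use, was at 7.93 in progenitors and at 8.14 in both mature mast cells and ILC2s. Irf1 was at 6.79 in progenitors and 6.78 in mature mast cells, against 6.79 in ILC2s. Stat2 and Irf9, parts of the factor that binds the ISRE after type I interferon, were at 6.53 and 6.48 in progenitors, 6.69 and 6.48 in mature mast cells, and 6.53 and 6.48 in ILC2s, so that Irf9 was tied on all 3 arrays. None of 9 measured interferon regulatory factors and related regulators reached 2-fold, but 6 to 8 of them were exactly tied in each comparison. None of 12 genes for interferons and interferon-inducing cytokines reached 2-fold either. Among them Ifng, the gene of interferon-γ, was at 5.55 on each array and below each median. Since only 2.44% of all genes passed 2-fold between progenitors and mature mast cells, the absence of such genes from lists of 9 and 12 says little.

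None of the 7 measured immunity-related GTPase genes reached 2-fold in any comparison, but with a share of 2.44% over all genes between progenitors and mature mast cells, 0 of 7 says little. Of the 7, 3 were tied between progenitors and mature mast cells, 1 between progenitors and ILC2s, and 5 between mature mast cells and ILC2s. The most different was Igtp, which encodes a regulator of the other GTPases of its family, at 6.77 in progenitors and at 7.28 in both mature mast cells and ILC2s. Irgm1, another regulator, was at 5.65 in both mast cell populations and 5.64 in ILC2s, below each median.

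Few of the other genes known to be induced by interferon passed. Between progenitors and ILC2s, 1 of 50 measured was lower in progenitors by 4-fold or more and 3 by 2-fold or more, against 0.888% and 1.88% of all genes, whereas none was 2-fold higher. Between mature mast cells and ILC2s 1 was at least 2-fold lower, against 1.26% of all genes, 1 was at least 2-fold higher and none reached 4-fold. Between progenitors and mature mast cells 1 was at least 4-fold lower, against 0.834% of all genes, and no other reached 2-fold. Counts of 1 to 3 genes say little beside these shares. Mndal, a gene of the interferon-inducible HIN-200 family of nuclear proteins, was at 4.57 in progenitors and 7.23 in mature mast cells, against 9.08 in ILC2s. Its level in progenitors lay below the median, so the cautious fold was at least 6.80-fold lower than in ILC2s but only at least 1.89-fold lower than in mature mast cells.

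The other genes of this group past 2-fold were Psmb9, Samhd1 and Ifit3. Psmb9, an immunoproteasome subunit, was at 7.47 in progenitors and 8.0 in mature mast cells, against 8.63 in ILC2s. Samhd1, which depletes deoxynucleotides and so limits viral replication, was at 7.12 in progenitors and 7.62 in mature mast cells, against 8.24 in ILC2s. Ifit3, an antiviral protein gene, ran the other way, at 8.81 in progenitors and 9.05 in mature mast cells, against 8.02 in ILC2s. Ifit3 was thus 2.05-fold higher in mature mast cells than in ILC2s, a comparison in which 1.34% of all genes were at least 2-fold higher.

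Among 13 genes of inflammasomes and pyroptosis, which act downstream of guanylate-binding proteins in macrophages, Casp1 alone reached 2-fold in any comparison, in both cases lower than in ILC2s, as 1.88% of all genes were in progenitors and 1.26% in mature mast cells. The gene, for inflammatory caspase 1, was at 5.53 in progenitors and 5.38 in mature mast cells, against 10.24 in ILC2s. Casp4, the caspase that senses cytosolic lipopolysaccharide, was at 5.57 in progenitors and at 5.48 in both mature mast cells and ILC2s. Gsdmd, the pore-forming gasdermin D, was at 6.97 on each array. The products of prenylation enzyme genes add the lipid anchor that some guanylate-binding proteins carry, or process proteins after it is added. None of 6 such genes reached 2-fold, and at least 5 of them were tied in each comparison. Beside a share of 2.44% over all genes between progenitors and mature mast cells, this says little for a list of 6.

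Of 13 genes of autophagy conjugation, a machinery that guanylate-binding proteins need to reach parasite vacuoles, Atg3 alone reached 2-fold, which 2.44% of all genes did between progenitors and mature mast cells and 1.88%, as lower ones, between progenitors and ILC2s. Atg3, the enzyme that conjugates LC3 to lipid, was at 6.96 in progenitors and 7.98 in mature mast cells, against 8.59 in ILC2s. Its level in progenitors was 2.02-fold lower than in mature mast cells and 3.09-fold lower than in ILC2s.

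**Figure D4:**
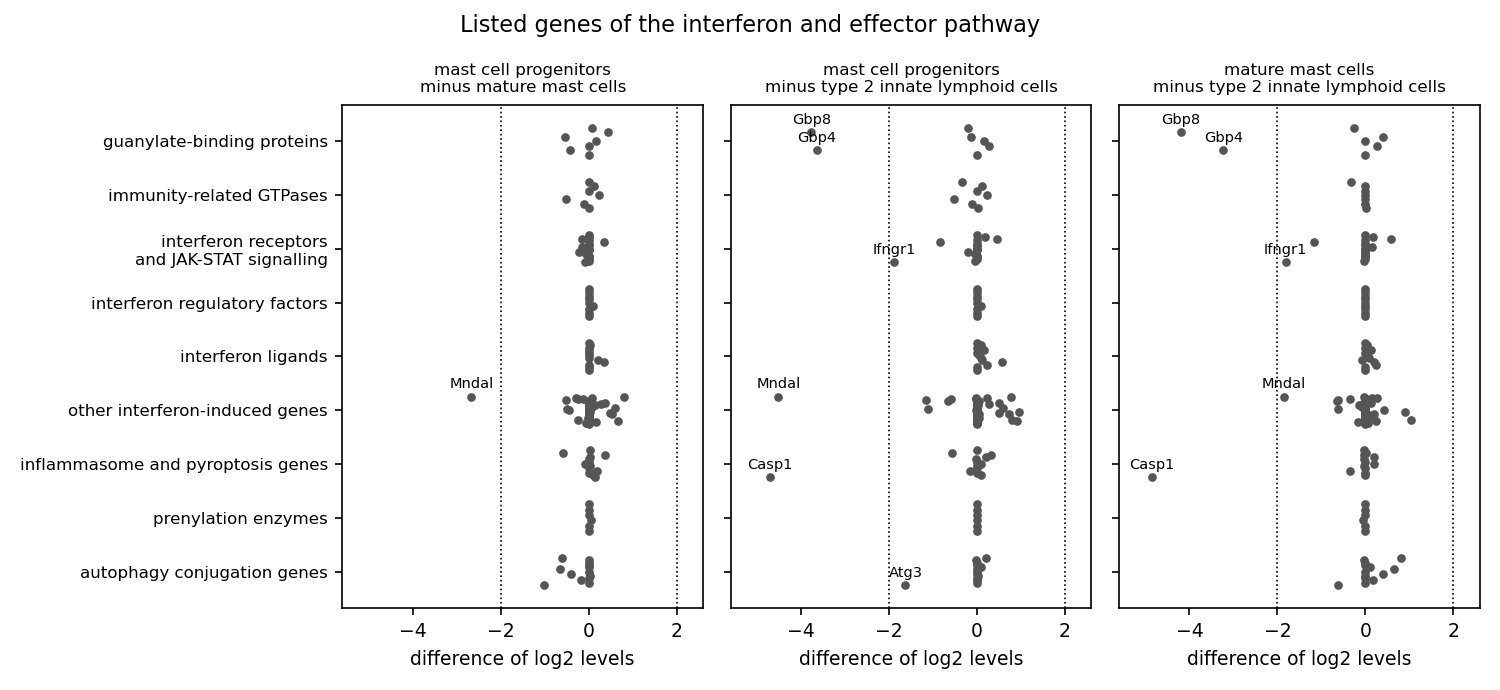
Difference of log2 levels (horizontal axis) for each measured gene of 9 lists (vertical axis, 1 point per gene, spread vertically to separate points) in the 3 comparisons, with dotted lines at 4-fold and names for differences of at least 1.5. Gbp4, Gbp8 and Casp1 lie beyond 4-fold in both comparisons with ILC2s, Mndal lies beyond it in both comparisons of progenitors by its measured level, although against mature mast cells the cautious fold is only at least 1.89-fold, and most other points stand at or near 0.

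The labels were set against marker genes. The mean log2 level of 9 mast cell markers was 8.12 in progenitors and 9.94 in mature mast cells, against 6.15 in ILC2s, and that of 9 markers of ILC2s was 6.40, 6.41 and 7.84. Of the 9 mast cell markers 4, the proteases Cpa3, Mcpt4, Cma1 and Tpsb2, were at least 2-fold higher in progenitors than in ILC2s, and the others were not. Kit and Fcer1a, whose proteins were used in the gate, were 1.20-fold and 1.25-fold higher in progenitors than in ILC2s, with Fcer1a below the median in both. Against ILC2s, 8 of the 9 were at least 2-fold higher in mature mast cells. Over all 22180 genes, 170 were so in progenitors, and 1.34% in mature mast cells. Of the 9 ILC2 markers 4, Cxcr6, Il7r, Arg1 and Klrg1, were at least 2-fold lower in both mast cell populations than in ILC2s. Of all genes 1.88% were so in progenitors and 1.26% in mature mast cells. Il7r encodes CD127 and Il2ra encodes CD25, both proteins of the gates, so these 2 genes are not independent of the sort. Il2ra was at 6.58 in both mast cell populations and 7.25 in ILC2s. It and the remaining ILC2 markers did not reach 2-fold. Among them Gata3, a transcription factor gene that defines the lineage, was at 6.76 in both mast cell populations and 6.82 in ILC2s. Rora, another such gene, was at 6.64 on each array. Of 42 measured markers of macrophages, B cells, T cells, NK cells, neutrophils, eosinophils and dendritic cells, none was 2-fold different in any comparison. Since only 2.44% of all genes were so between progenitors and mature mast cells, this result says little about other cells in the sorted populations. Many of the 42 were also exactly tied, which is not evidence of equal expression. The mean level of the macrophage list was 6.49 in progenitors and 6.37 in mature mast cells, against 6.42 in ILC2s, and the mean levels of the NK cell list were 6.25, 6.11 and 6.19.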

How the data were processed

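Amplified and biotinylated cDNA from 100 cells of each population was hybridised to 1 array, per the labels' protocols. The deposited log2 levels of 41345 probe sets came from RMA as run by the authors, a method named without a version in the submitters' processing notes. RMA usually subtracts background, equalises the arrays' distributions and combines probes into probe sets by median polish. Values of 2.23 to 13.67 show the log2 scale. Probe-level signals were not used, and a genome build is not given in the sources used here. With 1 array per population, no precision can be given for a level or a difference.

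Probe sets were named from the platform's gene table, in which 23521 name 1 gene, 1814 name several and 16010 are unlisted. Entrez identifiers of all 10 single-gene probe sets of the family matched their symbols in the RefSeq gene table of GRCm38.p6. A gene was represented by its single-gene probe set with the highest mean, and a difference of log2 levels was counted at 4-fold (or 2-fold) when the brighter array was above its median. The counting was tested on simulated data, with changes planted only in bright genes and without tied values. That test therefore does not cover dim levels such as those of Gbp4 and Gbp8 in mast cells. The rule for naming took the members, the interferon receptor chains and main factors, and up to 4 genes per list with the largest differences above the median. It also took the 3 nearest in pattern to each member spanning 1 log2 unit. Not all genes of this rule are named, and Ptpn2, Nlrp3, Pycard, Naip5, Ifnlr1 and Il10rb are among those left out. Kit, Fcer1a, Gata3 and Rora were named outside it. Members and lists were chosen with earlier results of these data known, and Ifng, Irgm1, Jak2, Casp4, Gsdmd, the flanking genes, the promoter motifs and the receptor genes after values were seen. Python 3.11.15 with pandas 2.3.3 was used.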

Additional observations from a re-analysis of the deposited data

How the results depend on the processing

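5 alternatives set out at the start were run, namely dropping the floor at the median, raising it to the 75th percentile, arrays shifted to 1 common median, the mean over a gene's probe sets, and probe sets of several genes included. The counts of guanylate-binding protein genes at 4-fold and at 2-fold, 0 between the mast cell populations and 2 in each comparison with ILC2s, were the same under all of them. For these genes the alternatives could change little. Each gene has 1 probe set, the ILC2 levels of Gbp4 and Gbp8 lie above either floor, and the shift to a common median was small. The unchanged counts are therefore no support for them. Setting levels below an array's median to that median, chosen after seeing the data, left 1 of these genes, Gbp8, at 4-fold in each comparison with ILC2s, since Gbp4 is then at 3.06-fold and 3.10-fold, and kept both at 2-fold. The counts over all genes stayed within 1.5 times, from 155 to 257 at 4-fold between progenitors and mature mast cells (210 as reported). A floor does not enter a difference of levels. Under the other alternatives set out at the start, no member's difference moved by more than 0.02 on the log2 scale, and none reversed where it was 2-fold or more. With probe sets of several genes included, Gbp2 entered with its shared probe set and a difference of 0. Since all alternatives start from the same 3 arrays, they say nothing of the error between animals, sorts or amplifications. No paired analysis was possible because each population has 1 array. Dim levels below the array median and exact ties limit what can be seen for Gbp3, Gbp5, Gbp6 and Gbp11.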
